A study of Mus musculus with 25 samples.

Results

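The rows of 7 genes in the count table were examined, the actin and signaling genes *Palld*, *Mical2*, *Rnd1*, *Fhdc1*, *Rgs4*, *Prkcd* and *Mapk13*, out of 50559 genes listed and 21738 with enough reads to be tested. They were selected on their counts in these same libraries, which were higher without *Bmal1*, by the size of the difference, its agreement between ZT8 and ZT20 and the co-variation of the genes across libraries. The genotype difference and the co-variation are therefore given as a description, without a test. The study also lists each of the 7 as upregulated at 1 or both time points in its own comparison of these libraries, so that list is not independent of the values shown here.

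Spinal cord mRNA bound to cholinergic neuron ribosomes was isolated by immunoprecipitation (IP) of a hemagglutinin tag that the RiboTag allele adds to a ribosomal protein wherever Cre is active. *ChAT-BKO* mice carried *ChAT-Cre*, RiboTag fx/+ and Bmal1 fx/fx, and lose *Bmal1*, an activator of the core circadian clock, in cells that have expressed *ChAT-Cre*. Controls, labelled wild-type, carried *ChAT-Cre* and RiboTag fx/+ without the floxed *Bmal1* allele, so Cre and the tag were common to both genotypes and the floxed allele was not. Male mice of 6 mo were collected at ZT8, in the light period, or at ZT20, in the dark period, with 6 mice and 6 IP libraries in each of the 4 groups, beside 1 input library pooled over both genotypes. *ChAT-Cre* drives the tag in motor neurons and in other cholinergic cells of the cord, and bulk IP libraries do not separate them. Fewer cholinergic cells and less mRNA per cell cannot be told apart in such data. Nor can a changed mix of tagged cells and more mRNA per cell. The study counted fewer lumbar motor neurons with this deletion, and says that degeneration may also have influenced its expression results. The part of such a loss in the values below was not tested.

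Libraries held 4.04 to 31.7 M counts on genes in the IP and 7.40 M in the input. The cholinergic markers *Chat*, *Slc18a3*, *Slc5a7*, *Ache*, *Isl1*, *Mnx1* and *Prph* were all above the input in the 24 IP libraries, by a mean log2 ratio of 1.69 to 5.17. *Arntl*, the gene symbol of *Bmal1*, differed in *ChAT-BKO* libraries by -1.64 (SE 0.16) on the log2 scale at ZT8 and by -2.08 (SE 0.16) at ZT20. Of 10 skeletal muscle markers, *Acta1* and *Tnnt3* passed the test as higher in *ChAT-BKO* libraries at ZT20, named after their values were seen. The summed level of the 10 spanned 8.04 to 28.3 CPM in controls (median 11.9) and 5.54 to 97.3 CPM in *ChAT-BKO* libraries (median 70.4) at that time. At ZT8 the medians were in the other order, with 4.52 to 98.6 CPM in controls (median 29.2) and 5.06 to 162 CPM in *ChAT-BKO* libraries (median 7.05). None of the 10 was at 0 in every IP library. Within groups the mean log2 CPM of that list had correlations of -0.19 to 0.05 with the 7 genes over 24 libraries, and its part in their values was not tested. Values beyond 0.5 in size were found for other lists, with -0.64 for *Rnd1* and -0.57 for *Rgs4* against 6 astrocyte markers, -0.53 for *Mapk13* against 6 oligodendrocyte markers, and 0.54 for *Mical2* and -0.70 for *Rgs4* against 5 inhibitory interneuron markers, and the part of these cells was not tested.

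Neurons reshape their actin filaments through proteins that bundle, sever or elongate them. Signals from G protein-coupled receptors reach the same machinery through G protein subunits, which RGS proteins switch off, and through kinases of the protein kinase C and p38 families. The 7 genes span these layers. *Palld* encodes palladin, a scaffold that bundles actin filaments, *Mical2* a monooxygenase that oxidizes and so disassembles them, and *Fhdc1* a formin. *Rnd1* encodes an atypical GTPase that stays bound to GTP. *Rgs4* encodes a GTPase-activating protein of G protein alpha subunits, *Prkcd* protein kinase C delta, and *Mapk13* the p38 delta kinase.

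The 7 genes lie on 7 chromosomes, given here in GRCm38, the mm10 assembly, from the GENCODE M21 annotation. Each is annotated as protein-coding, and no exon of theirs overlaps an exon of another annotated gene. *Palld* (ENSMUSG00000058056.16) is at chr8:61511433-61902690 on the minus strand, *Mical2* (ENSMUSG00000038244.14) at chr7:112225856-112413106 on the plus strand, *Rnd1* (ENSMUSG00000054855.13) at chr15:98663421-98677461 on the minus strand and *Fhdc1* (ENSMUSG00000041842.15) at chr3:84442198-84480429 on the minus strand. *Rgs4* (ENSMUSG00000038530.11) is at chr1:169741477-169747642 on the minus strand, *Prkcd* (ENSMUSG00000021948.17) at chr14:30595354-30626210 on the minus strand and *Mapk13* (ENSMUSG00000004864.13) at chr17:28769297-28780233 on the plus strand. Their merged exons differ in length from 2967 bases for *Rnd1* to 15218 bases for *Mical2*, which matters for the co-variation described at the end.

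BMAL1 binds DNA as a dimer with CLOCK at the E-box, whose letters are CACGTG on both strands, and the promoters are shown for that reason. RefSeq promoter windows (GRCm38.p6, 250 bases before to 50 bases after a start) were at hand for 6 of the 7 genes, in 10 windows, and *Rnd1* had no entry. An E-box was found in the *Mical2* window and in the more upstream of the 2 *Prkcd* windows, and in none of the windows of *Palld*, *Fhdc1*, *Rgs4* and *Mapk13*. Of all 27025 genes with a window, 8.09% had an E-box in at least 1 of theirs. The *Mical2* letters lie 165 to 160 bases before the start and the *Prkcd* letters 106 to 101 bases before it. None of the 10 windows held the D-box TTATGTAA, the RORE TAGGTCA or the CRE TGACGTCA, searched on both strands, which occur in 0.938%, 2.61% and 1.79% of all 32851 windows. The match is a description of the sequence, and its absence from a window says nothing about the rest of a gene. Both windows with an E-box follow, 5′ to 3′ on the strand of the gene, with the E-box in capitals.
*Mical2*, chr7:112225586-112225885, plus strand: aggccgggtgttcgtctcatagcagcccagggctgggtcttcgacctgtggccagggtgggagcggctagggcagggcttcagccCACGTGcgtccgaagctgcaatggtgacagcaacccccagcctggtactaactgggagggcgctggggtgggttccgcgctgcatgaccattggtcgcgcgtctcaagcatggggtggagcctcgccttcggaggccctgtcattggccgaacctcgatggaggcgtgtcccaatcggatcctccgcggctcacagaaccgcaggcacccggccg
*Prkcd*, chr14:30626159-30626458, minus strand: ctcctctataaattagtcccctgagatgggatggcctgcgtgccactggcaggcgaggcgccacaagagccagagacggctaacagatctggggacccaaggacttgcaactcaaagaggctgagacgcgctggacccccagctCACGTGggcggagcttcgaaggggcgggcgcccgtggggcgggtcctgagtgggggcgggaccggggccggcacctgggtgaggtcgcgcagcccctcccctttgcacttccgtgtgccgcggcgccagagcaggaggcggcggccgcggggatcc

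All 7 genes had a higher mean in *ChAT-BKO* libraries than in controls at ZT8 and at ZT20, and the median of their 7 log2 fold changes was 0.31 and 0.30, against 0.00 and -0.01 for all 21738 genes. Levels are given as normalised read counts (CPM, the counts of a gene over the TMM-scaled total of its library, per M), and fold changes as log2 values of edgeR's fit. The count of genes whose 6 *ChAT-BKO* libraries lay above all 6 controls was 4 of 7 at ZT8, where 0.396% of all genes had their *ChAT-BKO* libraries above every control, and 3 of 7 at ZT20, where 0.359% did. edgeR called 0 of the 7 at ZT8 (0.184% of all genes were called) and *Palld*, *Mical2* and *Prkcd* at ZT20 (0.230% called). As the same contrast chose the genes, nothing is read from these counts.

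Among the actin regulators, *Palld* ran from 14.0 to 17.3 CPM in controls at ZT8 (median 15.0) and from 17.6 to 23.7 CPM in *ChAT-BKO* libraries (median 21.2), without overlap. At ZT20 it ran from 14.6 to 18.3 CPM in controls (median 16.0) and from 17.9 to 25.6 CPM in *ChAT-BKO* libraries (median 21.1), where the lowest *ChAT-BKO* library fell just under the highest control. On the log2 scale the ZT8 difference was 0.42 (SE 0.09) and the ZT20 difference 0.44 (SE 0.09). These 2 values are close, and *Palld* had the highest fold change among the 6 genes other than *Mapk13* at ZT8.

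*Mical2* was at 74.6 to 113 CPM in controls (median 91.7) and 96.9 to 129 CPM in *ChAT-BKO* libraries (median 111) at ZT8, with overlapping ranges. At ZT20 controls were at 68.4 to 93.5 CPM (median 86.7) and *ChAT-BKO* libraries at 99.0 to 142 CPM (median 111), with a gap between them. The log2 difference was 0.31 (SE 0.10) in the light and 0.44 (SE 0.09) in the dark, and the difference of the effects, 0.15 (SE 0.14), was about as large as its SE. *Mical2* lies 0.794 Mb from *Arntl* on chromosome 7, and so near the floxed allele that controls do not carry. Of the 10 other tested genes within 1 Mb of *Arntl*, edgeR called 0 at either time, and 1 at each time had an unadjusted p under 0.05. Limma voom called 0 of these neighbours and DESeq2 0, of 10 at ZT8 and of the 8 to which it gave an adjusted p at ZT20. With so few of all genes called by edgeR (0.184% in the light and 0.230% in the dark), 0 of 10 says little. Within 5 Mb lay 65 tested genes, *Mical2* included, and 2 passed edgeR's test in the light and 2 in the dark. *Mical2* was 1 of them in the dark only. The 20 Mb window held 418 genes, with 4 passing in the light and 5 in the dark. In both of these wider windows the share called was above that of all genes at both times. Whether the floxed allele had a part was not tested.

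*Fhdc1* was the least even of the 7 across the day. At ZT8 the *ChAT-BKO* libraries (16.8 to 22.3 CPM, median 19.9) lay inside the range of the controls (14.5 to 24.5 CPM, median 17.9). At ZT20 they ran from 22.0 to 25.8 CPM (median 23.6), all above the controls at 17.2 to 20.8 CPM (median 19.0). On the log2 scale the difference was 0.07 (SE 0.12) at ZT8 but 0.30 (SE 0.07) at ZT20, and the effect at ZT20 exceeded that at ZT8 by 0.23 (SE 0.14), the widest gap of the 7 relative to its SE. At ZT8 the sign itself turned on 1 library, since the value was -0.0014 without control replicate 2.

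*Rnd1* was at 60.4 to 70.0 CPM in controls (median 66.4) and 72.7 to 87.3 CPM in *ChAT-BKO* libraries (median 77.9) at ZT8, without overlap. At ZT20 the ranges were 57.8 to 67.7 CPM (median 63.1) and 65.0 to 81.2 CPM (median 76.8), and 5 of 6 *ChAT-BKO* libraries exceeded every control. Its log2 fold change was 0.24 at both times (SE 0.06 at ZT8 and 0.07 at ZT20). The difference of the effects was 0.01 (SE 0.09), the smallest of the 7.

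Among the signaling genes, *Rgs4* was at 214 to 266 CPM in controls (median 240) and 262 to 349 CPM in *ChAT-BKO* libraries (median 296) at ZT8. At ZT20 controls were at 257 to 296 CPM (median 272) and *ChAT-BKO* libraries at 268 to 364 CPM (median 324). In both cases 5 of 6 *ChAT-BKO* libraries lay above every control and 1 fell among them. *Rgs4* differed by a log2 value of 0.31 (SE 0.07) in the light and 0.22 (SE 0.06) in the dark, and had its lower value at ZT20. The difference of the effects, -0.08 (SE 0.10), was smaller than its SE.

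*Prkcd* was the gene of the 7 whose genotypes did not overlap at either time. Controls ran from 50.2 to 58.3 CPM (median 54.7) and *ChAT-BKO* libraries from 59.7 to 70.3 CPM (median 63.7) at ZT8. At ZT20 the controls were at 51.8 to 56.2 CPM (median 54.3) and the *ChAT-BKO* libraries at 63.2 to 67.6 CPM (median 64.4). The coefficient of variation was 2.42% in *ChAT-BKO* libraries at ZT20 and at most 6.13% in any group, and the log2 differences were 0.24 (SE 0.06) at ZT8 and 0.26 (SE 0.05) at ZT20.

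*Mapk13* had the highest fold change on the fewest reads. Its counts per library ran from 4 to 35. At ZT8 controls were at 0.474 to 1.31 CPM (median 0.802) and *ChAT-BKO* libraries at 1.63 to 2.25 CPM (median 2.02), without overlap. At ZT20 controls were at 0.470 to 1.05 CPM (median 0.610), while *ChAT-BKO* libraries spread from 0.528 CPM in replicate 2, on 4 counts, to 3.47 CPM in replicate 5, on 18 counts (median 1.57). The log2 differences were 1.18 (SE 0.24) at ZT8 and 1.24 (SE 0.33) at ZT20, and the latter was 1.00 without *ChAT-BKO* replicate 5 and 0.94 without replicates 5 and 6, the libraries of that contrast under 6 M counts. A count of 0 would allow a level of 0.0947 to 0.442 CPM in control libraries and of 0.161 to 0.743 CPM in *ChAT-BKO* libraries. The 3 IP libraries under 6 M counts, where this level is highest, were all *ChAT-BKO*. The lowest control values of *Mapk13* were near what the libraries can resolve.

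**Figure D1:**
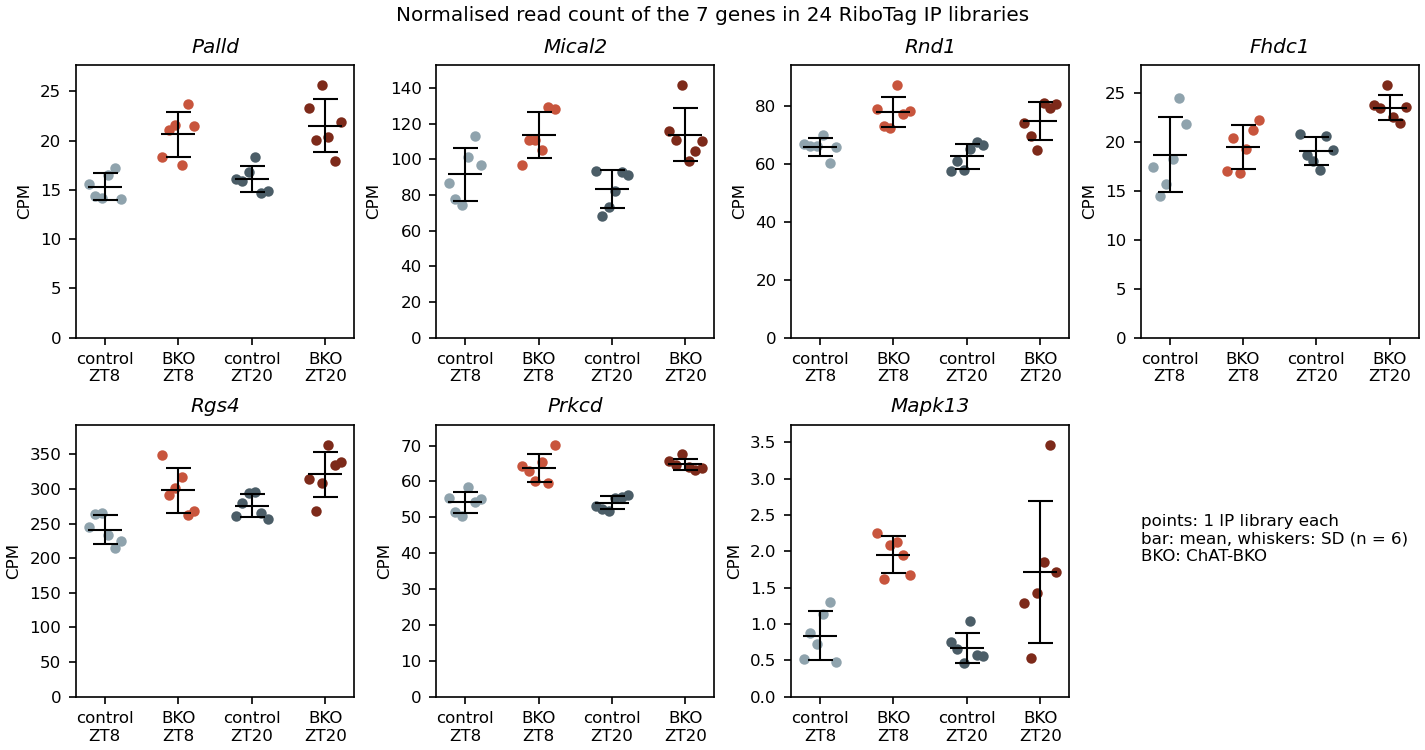
Normalised read count in CPM of each gene on a linear axis from 0, by group, with 1 point per IP library and the mean and SD (n = 6) as a bar with whiskers. The *ChAT-BKO* points of *Prkcd* sit above every control point at both times, those of *Fhdc1* do so at ZT20 and lie within the control range at ZT8, and *Mapk13* spreads from 0.528 to 3.47 CPM in *ChAT-BKO* libraries at ZT20.

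The change of the 7 transcripts between the light and the dark period was examined within each genotype, in the libraries on which the genes were chosen. Since the choice used the agreement of the genotype difference between ZT8 and ZT20, it limited how far the time effects of both genotypes could differ, and the counts and p-values below are no independent evidence of steadiness. None of the 7 was called between ZT20 and ZT8 by edgeR, with 0 of 7 in controls (0.115% of all genes were called) and 0 of 7 in *ChAT-BKO* neurons (0.285% called). DESeq2 and limma voom also called 0 in either genotype, and 1 of the 7 had an unadjusted p under 0.05 in each. The median log2 fold change of the 7 from ZT8 to ZT20 was -0.00 in controls and 0.02 in *ChAT-BKO* neurons, against 0.00 in both for all genes.

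*Rgs4* had the lowest p in controls, with 4 of 6 libraries at ZT20 above every library at ZT8, and its log2 fold change of 0.19 (SE 0.06) had an adjusted p of 0.362 from edgeR. With a covariate for how strongly a library favours long genes (the length slope, described with the co-variation), the log2 fold change was 0.18 (SE 0.04) with an adjusted p of 0.0046 from edgeR, a fit in which 348 genes were called in place of 25. Over the other alternatives its adjusted p from edgeR, DESeq2 or limma ran from 0.114 to 0.384, and it was between 0.220 and 0.589 whichever single library was left out. In *ChAT-BKO* neurons the value for *Rgs4* was 0.11 (SE 0.08, adjusted p = 0.726 from edgeR). The time effect on *Rgs4* in *ChAT-BKO* neurons less that in controls was -0.08 (SE 0.10) in a fit of both genotypes, smaller than its SE and given without a test.

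*Fhdc1* had the lowest p in *ChAT-BKO* neurons, with 5 of 6 libraries at ZT20 above every library at ZT8, and its log2 fold change of 0.28 (SE 0.08) had an adjusted p of 0.203 from edgeR. In controls it was 0.05 (SE 0.11). The ZT20 *ChAT-BKO* libraries of this contrast are those on which *Fhdc1* was picked. *Prkcd* was the steadiest, with log2 fold changes of -0.00 (95% interval -0.12 to 0.12) in controls and 0.02 (-0.10 to 0.14) in *ChAT-BKO* neurons. *Palld*, *Mical2* and *Rnd1* had values between -0.13 and 0.10 in both genotypes, and *Mapk13* had -0.35 (SE 0.30) and -0.28 (SE 0.28). The 95% intervals of *Mapk13*, -1.02 to 0.33 and -0.90 to 0.33, show how little these libraries can resolve.

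**Figure D2:**
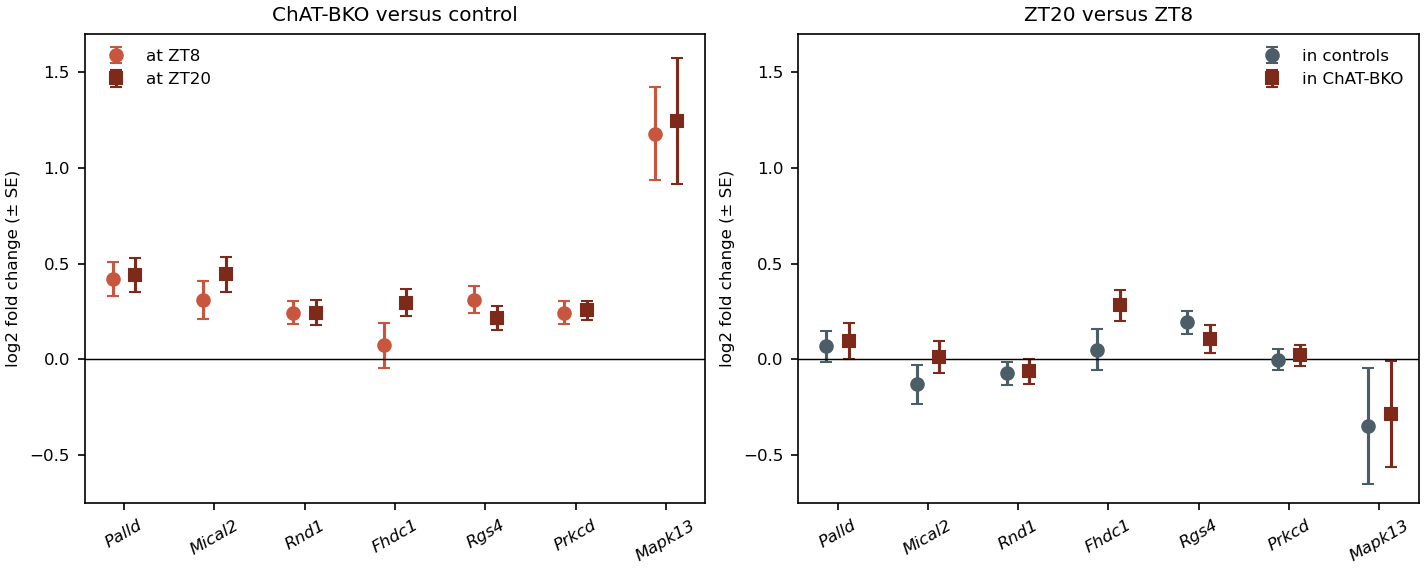
log2 fold change of each gene with its SE as whiskers, for *ChAT-BKO* versus control at ZT8 and ZT20 on the left and for ZT20 versus ZT8 in each genotype on the right, each from 6 against 6 IP libraries. All points on the left lie above 0, from 0.07 for *Fhdc1* at ZT8 to 1.24 for *Mapk13* at ZT20, while those on the right lie on both sides of 0, from -0.35 to 0.28.

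The enrichment of each transcript on tagged ribosomes relative to whole spinal cord was described by the ratio of the IP level to the pooled input, which has no replicate and so no test. This ratio does not give the share of a transcript that was bound. Per kilobase of exon, mean levels over the 24 IP libraries were in the order *Rgs4* (91.7 CPM per kb, SD 12.6), *Rnd1* (23.8, SD 2.68), *Prkcd* (10.7, SD 1.05), *Mical2* (6.62, SD 1.22), *Fhdc1* (3.23, SD 0.48), *Palld* (1.79, SD 0.32) and *Mapk13* (0.411, SD 0.239). The ranges over libraries of *Prkcd* and *Mical2* overlapped, as did those of *Fhdc1* and *Palld*, yet each neighbour was above the next in 24 of 24 libraries.

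*Rgs4* was at a mean log2 ratio of IP to input of 1.69 (SD 0.20), *Mical2* at 1.26 (SD 0.27), *Prkcd* at 1.24 (SD 0.14), *Rnd1* at 0.87 (SD 0.16) and *Palld* at 0.70 (SD 0.26), each above the input in 24 of 24 libraries. Over the 12 control libraries alone the means were 1.56, 1.07, 1.12, 0.74 and 0.49, with *Prkcd* above *Mical2*. *Fhdc1* was the exception, at -0.09 (SD 0.22) and above the input in 10 of 24. Its mean was below the input in controls at both times and in *ChAT-BKO* libraries at ZT8 (-0.20, -0.15 and -0.13) and above it in *ChAT-BKO* libraries at ZT20 (0.14). *Mapk13* had 2 counts in the input, and its mean IP level was 6.55 times the input, with a 95% interval of 1.81 to 54.1 from the exact Poisson error of the input count alone. The median of the 7 was 1.24, below each of the 7 cholinergic markers, of which *Isl1* was the lowest at 1.69. Without TMM the median was 0.79, and the count of 24 of 24 for *Palld* rests on the TMM scaling. On totals alone, *Palld* had 113 of 7.40 M counts in the input and 148 of 10.5 M in control replicate 6 at ZT8, a lower share.

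**Figure D3:**
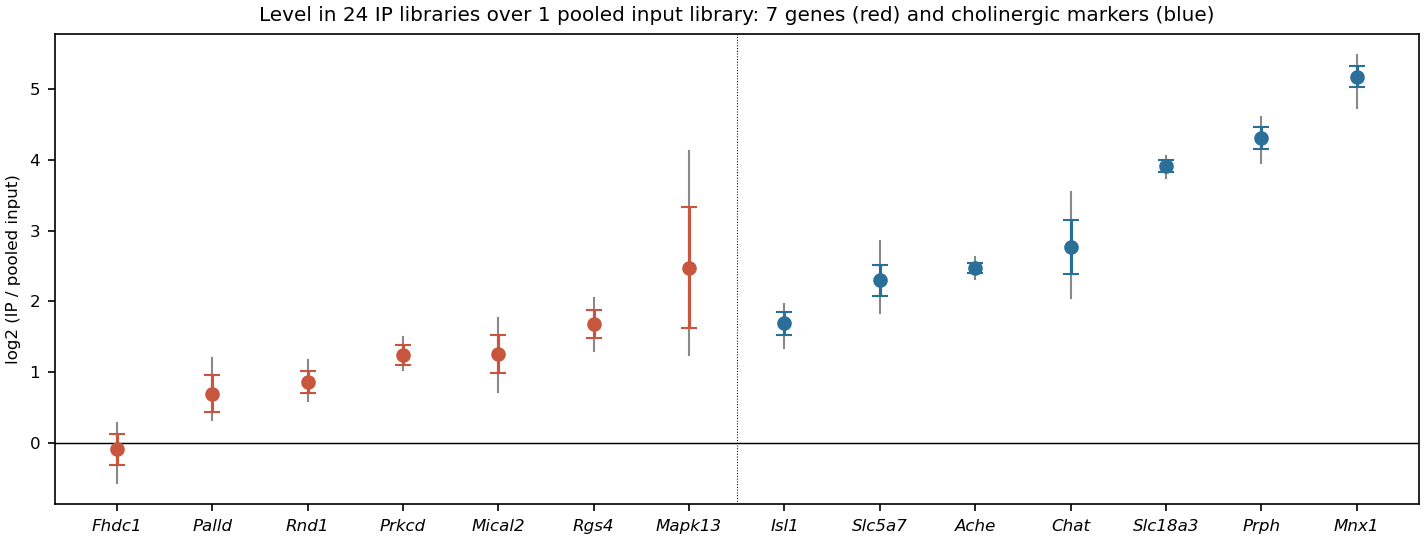
log2 ratio of the level in each IP library to that in the 1 pooled input for the 7 genes (red) and 7 cholinergic markers (blue), with the mean as a point, the SD over 24 libraries as whiskers and the full range as a grey line. *Fhdc1* straddles 0 at a mean of -0.09, *Rgs4* reaches 1.69, and *Mnx1* is the highest marker at 5.17.

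The relatives of the 7 genes were next examined in the genotype contrasts. Of 140 genes on 7 lists of paralogs and partners, 136 had enough reads, and edgeR called 0 of them at ZT8 and 0 at ZT20, where so few of all genes were called (0.184% and 0.230%) that a count of 0 says little about the lists. DESeq2 and limma voom also called 0 at both times, and 1 and 7 had an unadjusted p under 0.05, as did 4.83% and 6.28% of all genes. Over these 136 genes the median difference on the log2 scale was 0.00 at ZT8 and 0.01 at ZT20, with 71 and 73 above 0. Between ZT20 and ZT8, edgeR called 0 of the 136 in either genotype, with 15 in controls and 20 in *ChAT-BKO* neurons at an unadjusted p under 0.05, beside 8.25% and 9.42% of all genes. Limma voom called 0, and DESeq2 called 2 and 3, beside 0.584% and 1.00% of all genes.

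Of 16 palladin relatives and actin filament partners, 0 were called and the medians of the log2 fold changes were -0.01 and 0.05 at ZT8 and ZT20. *Mypn*, the paralog of *Palld* with reads to judge it, had 0.07 (SE 0.24) and 0.13 (SE 0.17), while *Myot* was at a mean of 0.094 CPM, under the level that 0 counts allow. *Pfn2*, which encodes an actin monomer carrier, had -0.14 (SE 0.05) and *Actn4*, a filament cross-linker, 0.18 (SE 0.07) at ZT20, with adjusted p = 0.511 and 0.734 from edgeR.

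Of 20 MICAL relatives and genes of the actin-sensing MRTF-SRF axis, 0 were called. *Mical1* had log2 fold changes of -0.09 (SE 0.08) and -0.03 (SE 0.08), and *Mical3* had -0.02 (SE 0.09) and 0.10 (SE 0.11), beside 0.31 and 0.44 for *Mical2*. The actin-binding *Tagln2* had -0.32 (SE 0.12, adjusted p = 0.882 from edgeR) at ZT8 and *Myl9* -0.48 (SE 0.21, adjusted p = 0.758) at ZT20. *Mical1* was above the input by a log2 ratio of 0.94 and *Mical3* below it (-1.41), so the 3 MICAL genes differ in their enrichment over the input.

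*Rnd2*, at 59.3 CPM per kb the more abundant relative of *Rnd1*, had log2 fold changes of 0.03 (SE 0.08) and -0.02 (SE 0.06), and *Rnd3* had -0.10 (SE 0.09) and -0.16 (SE 0.09). Of 14 formins, 0 were called. Among them *Daam1* had 0.15 (SE 0.08) and *Fhod3* 0.19 (SE 0.10) at ZT20, with adjusted p = 0.820 and 0.822 from edgeR.

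Of 20 RGS genes 16 could be tested and 0 were called. *Rgs5*, a close paralog of *Rgs4*, had -0.07 (SE 0.12) and -0.03 (SE 0.13), *Rgs8* 0.16 (SE 0.12) and -0.07 (SE 0.14), and *Rgs16* was at 0.452 CPM, too low to judge. *Rgs10* had -0.22 (SE 0.12, adjusted p = 0.827 from edgeR) and *Rgs14* 0.88 (SE 0.48, adjusted p = 0.828) at ZT20, the latter at a mean of 0.308 CPM. *Rgs5* was far below the input (log2 ratio -3.66) and *Rgs8* below it (-1.76), unlike *Rgs4* at 1.69.

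Of 23 genes of the protein kinase C family and of diacylglycerol signaling, 0 were called. The isoforms *Prkce*, *Prkch* and *Prkcq*, which like *Prkcd* answer to diacylglycerol without calcium, had log2 fold changes of 0.09 (SE 0.07), -0.01 (SE 0.23) and -0.05 (SE 0.09) at ZT8 and of -0.09 (SE 0.07), -0.26 (SE 0.14) and -0.15 (SE 0.10) at ZT20. All 3 were thus below 0 at ZT20, where *Prkcd* had 0.26. *Prkci* had -0.17 (SE 0.09, adjusted p = 0.825 from edgeR) and the phospholipase gene *Plcb3* 0.20 (SE 0.09, adjusted p = 0.773) at ZT20.

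Of 21 genes of the p38 cascade, 0 were called. *Mapk13* was the least abundant of the 4 p38 genes, at 0.411 CPM per kb against 29.6 for *Mapk11* (SD 2.57), 11.3 for *Mapk14* (SD 1.29) and 7.26 for *Mapk12* (SD 0.58). *Mapk11* had log2 fold changes of -0.03 (SE 0.06) and -0.14 (SE 0.07, adjusted p = 0.804 from edgeR), *Mapk12* of -0.07 (SE 0.08) and -0.00 (SE 0.07), and *Mapk14* of 0.12 (SE 0.09) and 0.16 (SE 0.06, adjusted p = 0.667). The higher *Mapk13* level in *ChAT-BKO* libraries, a mean of 0.620 CPM per kb at ZT8 and 0.544 CPM per kb at ZT20, remained small beside the levels of the other p38 genes.

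The co-variation of the 7 genes was described over the 24 IP libraries after the mean of each group was taken off log2 CPM, so that genotype and time do not enter. The genes did not vary as 1 block. Of 21 pairs, 12 had a positive Pearson correlation, and the median was 0.03 (Spearman 0.02), beside a median of 0.00 and a 5th to 95th percentile of -0.68 to 0.69 over all pairs of the 10429 genes with a mean of at least 5 CPM. *Mical2* and *Fhdc1* had the highest value at 0.78 and were positive within each of the 4 groups. *Mical2* and *Rgs4* had the lowest at -0.74, and *Fhdc1* and *Rgs4* had -0.73, both negative within each of the 4 groups. Leaving out the 2 libraries farthest from the median, replicate 2 of *ChAT-BKO* at ZT20 and replicate 4 of the controls at ZT8, gave a median of -0.05.

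The sign of the correlations went with the length of the genes, and also with the level of the cholinergic markers. When log2 CPM is regressed on log2 exon length over all genes with a known length, each library has a slope of its own, from 0.967 to 1.11, which says how far long genes are favoured in it. Slopes overlapped between the groups, with medians of 1.01 in controls and 1.03 in *ChAT-BKO* libraries at ZT8 and of 1.02 and 1.04 at ZT20. Over the 24 libraries, with group means taken off, this slope had a correlation of 0.89 with *Mical2*, 0.61 with *Palld* and 0.83 with *Fhdc1*, the 3 genes with the longest exons. It had 0.28 with *Prkcd*, -0.08 with *Mapk13*, -0.76 with *Rgs4* and -0.52 with *Rnd1*, the shorter 4. Spearman values had the same signs. The mean log2 CPM of the 7 cholinergic markers, taken the same way, had a correlation of 0.86 with the slope itself. It had 0.86 with *Mical2*, 0.77 with *Fhdc1*, 0.60 with *Palld*, 0.52 with *Prkcd*, -0.12 with *Mapk13*, -0.36 with *Rnd1* and -0.66 with *Rgs4*. Astrocyte and inhibitory interneuron markers, lists with a median below the input, had correlations of 0.61 and 0.53 with the slope. The remaining lists of other cell types had -0.27 to 0.41. The levels of these markers and the length slope cannot be told apart here as what the genes follow. The logarithm of the total count had correlations of -0.13 to 0.18 with 6 of the genes and of 0.53 with *Prkcd*.

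With the slope regressed out, a step chosen after seeing the data, the pair *Mical2* and *Fhdc1* fell from 0.78 to 0.17, *Mical2* and *Rgs4* moved from -0.74 to -0.21 and *Fhdc1* and *Rgs4* from -0.73 to -0.25. Other pairs turned sign, among them *Palld* and *Fhdc1* from 0.32 to -0.41, *Mical2* and *Rnd1* from -0.27 to 0.49 and *Fhdc1* and *Rnd1* from -0.26 to 0.37. *Palld* and *Rgs4* turned from -0.33 to 0.26, *Palld* and *Mical2* from 0.53 to -0.02 and *Rnd1* and *Rgs4* from 0.39 to -0.03. Of the 6 pairs at or beyond 0.5 in size, 1 stayed there, *Mical2* and *Prkcd*, which went from 0.51 to 0.60, and the pair of *Rgs4* and *Mapk13* joined it at 0.53. The range over 21 pairs became -0.41 to 0.60. The genotype effect itself kept its direction with the slope in the fit, at a log2 fold change of 0.30 for *Mical2*, 0.40 for *Palld* and 0.32 for *Rgs4* at ZT8, with SEs of 0.05, 0.07 and 0.04, and of 0.31, 0.38 and 0.26 at ZT20. At ZT20 *Mical2* went from 0.44 to 0.31 and *Mapk13* from 1.24 to 1.41.

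**Figure D4:**
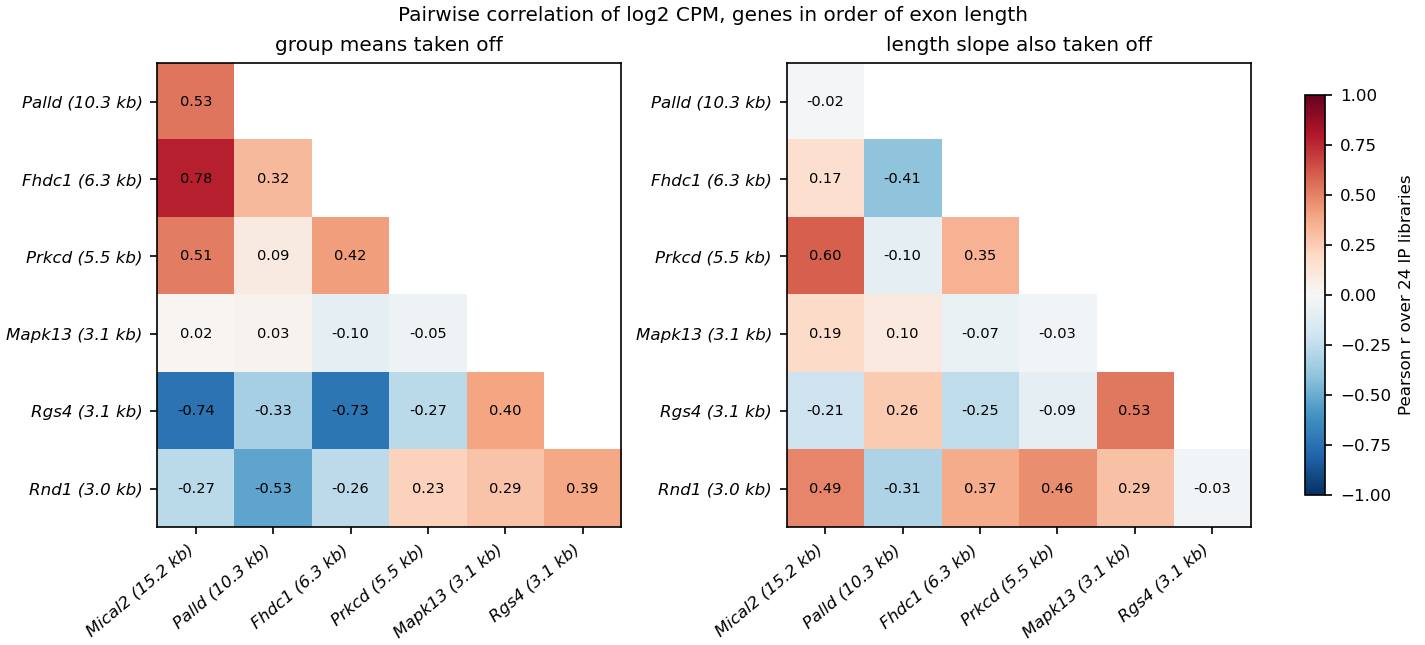
Pearson correlation of log2 CPM for each of the 21 gene pairs over 24 IP libraries, on a color scale from -1 to 1, with the genes in order of exon length in kb, after group means were taken off (left) and after the length slope was also taken off (right). On the left the long genes *Mical2*, *Palld* and *Fhdc1* are positive with each other and negative with *Rgs4* and *Rnd1*, and on the right *Mical2* and *Fhdc1* are at 0.17 while 3 pairs of these blocks have turned sign and grown, such as *Mical2* and *Rnd1* at 0.49.

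**Figure D5:**
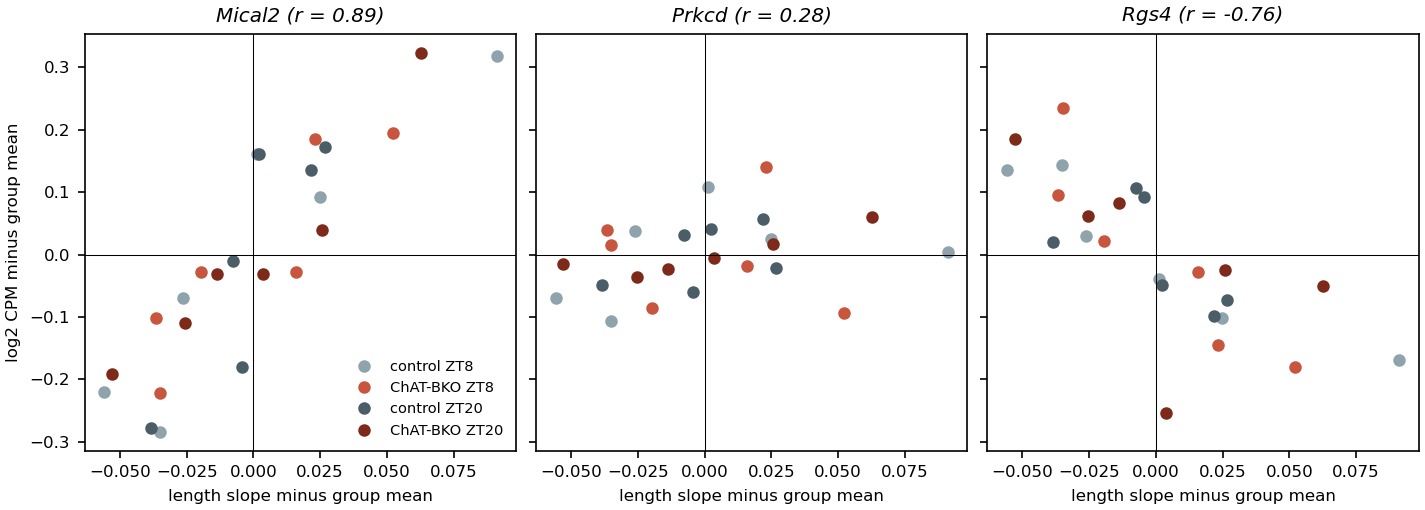
log2 CPM of *Mical2*, *Prkcd* and *Rgs4* in each of the 24 IP libraries against the length slope of that library, both as differences from the group mean, colored by group. The points climb for *Mical2* (r = 0.89), stay flat for *Prkcd* (r = 0.28) and descend for *Rgs4* (r = -0.76).

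The genes of any kind whose pattern over the 24 libraries was most like each member, by Pearson correlation with group means taken off and at a mean of at least 5 CPM, were other genes than the 7. For *Mical2* they were *Atcay* (0.96), *Ptprn2* (0.95) and *Clstn1* (0.95), and for *Fhdc1* they were *Zfp646* (0.91), *Lrrc59* (0.91) and *Capn2* (0.90). For *Rgs4* they were *Gm20300* (0.93), *Cdc42* (0.89) and *Morf4l2* (0.89), and for *Rnd1* they were *Psmd12* (0.87), *Fkbp5* (0.85) and *Gsto1* (0.83). The log2 fold change of *Cdc42* between the genotypes was 0.05 at ZT8 and -0.10 at ZT20, so that it followed *Rgs4* from library to library and not between genotypes.

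*Palld* was closest to *9930021J03Rik* (0.84), *Cdc27* (0.83) and *Srpk2* (0.82), *Prkcd* to *Smc1a* (0.83), *Rpap2* (0.77) and *Kars* (0.76), and *Mapk13* to *Hgh1* (0.77), *Tmem64* (0.72) and *Nck1* (0.71). The mean of the 7 standardized patterns was closest to *Uhrf1bp1* (0.80), *Trap1* (0.79), *Eif4a1* (0.78), *Eif2s1* (0.77) and *Hsd17b12* (0.75). Each of these was picked as the highest over 10429 genes and shares the libraries, their depth and their length slope with the gene it follows.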

How the data were processed

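Ribosome-bound mRNA of 24 mice in 4 groups was sequenced beside 1 pooled input. The authors aligned reads with STAR 2.7.5 to mm10 and estimated counts with RSEM, per the labels and methods, and deposited expected counts per gene for 25 libraries, unnormalized, with 0 columns left out. As 6.11% of values were not whole numbers, they were rounded.

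Genes whose counts over the 24 IP libraries added up to 10 or more were tested in R 4.3.3 with edgeR 4.0.16 (TMM, quasi-likelihood test, two-sided, Benjamini-Hochberg adjusted over 21738 genes, called under 0.05), each contrast on its own 12 libraries. The SE was derived from the F statistic, and a prior count of 2 went into log2 CPM. Exon lengths matched 87.1% of tested genes. Replicates are labelled as biological. The interval of the *Mapk13* ratio to input and the levels that 0 counts allow (3 counts) cover counting error only. Intervals of the time effects were built from the SE, and so also cover variation between libraries.

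The 7 genes and the gene lists were chosen with earlier results of these data known. Named genes were these 7, *Arntl*, their paralogs, listed genes with an adjusted p under 0.05 or else the 2 lowest unadjusted genotype p of a list, and the genes nearest in pattern. Alternatives were DESeq2 1.42.0, its size factors, no filter, filterByExpr, replicate number as a block, all 24 IP libraries, limma 3.58.1 voom, the length slope as a covariate and each library left out. Leaving out libraries under 6 M counts was added after seeing the data. The edgeR fit alone was tried on simulated data, with larger changes than those of the 7 genes, so that trial does not bear on changes of their size. The separate result of 1 of the lists is not reported here.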

Additional observations from a re-analysis of the deposited data

How the results depend on the processing

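The genotype log2 fold changes of the 7 genes kept their direction and stayed within 1 SD between replicates at ZT20 in all 147 refits and at ZT8 in 146 of them, and the exception was *Fhdc1* without control replicate 2 (-0.0014, and at most 0.15 with another library left out). Their median ran from 0.26 to 0.31 at ZT8 and from 0.27 to 0.32 at ZT20 with each library left out. Leaving out 1 of 6 libraries can hardly move a group mean by 1 SD between replicates. Every refit also reused the libraries on which the genes were chosen. The tally of refits within 1 SD is therefore no independent evidence of a steady effect. With the length slope, 1 of the 7 was called over time in controls (*Rgs4*) and 1 listed gene between genotypes at ZT20 (*Tagln3*, named after its value was seen), where both counts were 0. Over time in controls, the *Prkcd* value near 0 changed sign without a filter (0.00025), with the replicate block (5.3e-05) and with the length slope (0.00025), and lay between -0.020 and 0.025 when single libraries were left out. *Fhdc1* ran from -0.022 to 0.14 there, and *Mical2* in *ChAT-BKO* neurons from -0.063 to 0.053, with -0.061 under the length slope. The median ratio to input was 0.79 without TMM and 1.23 to 1.25 with each library left out.

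Calls on the 7 genes depended on single libraries. The 3 calls at ZT20 became 0 without control replicate 2, 3 or 5 or *ChAT-BKO* replicate 1, 2, 3 or 6, 1 without control replicate 1 or 4, and 2 without control replicate 6. The 0 calls at ZT8 became 1 without *ChAT-BKO* replicate 4 and 2 without control replicate 5. DESeq2 called 5 and 4 of the 7, the length slope 6 and 6, limma voom 1 and 2, and without libraries under 6 M counts 0 and 1 were called. Over all genes, DESeq2 called 70 and 93 in place of 40 and 50, and the length slope 144 and 191.

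Over time, DESeq2 called 127 genes in controls and 218 in *ChAT-BKO* neurons in place of 25 and 62. The listed genes it called were *Rgs2* and *Rhof* in controls and *Grid2ip*, *Micall2* and *Rgs2* in *ChAT-BKO* neurons, named after their values were seen. Same-numbered libraries did not all deviate together. Between genotypes their correlations were -0.17 to 0.27 at ZT8 and -0.08 to 0.24 at ZT20, with 3 and 2 of 6 over 0.1. Of 6, 1 and 2 correlated best with their own number. Over time the correlations were 0.0092 to 0.36 in controls (2 of 6 over 0.1) and -0.20 to 0.096 in *ChAT-BKO* neurons (0 of 6). These values do not settle whether the numbers pair the libraries. With the replicate block, 69 and 61 genes were called between genotypes, 4 and 2 of them among the 7, and 86 and 47 over time. The cause of these differences was not tested. *Mapk13* fell under filterByExpr's limit over time in controls, where it has no value.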
